A study of Mus musculus with 8 samples.

Results

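The loci described here were the stretches of transcription without a gene symbol that lay more than 10000 bases from every locus with a symbol on the same chromosome. They were taken from the autosomes, and they were selected on measured values too, since each had to reach 1 FPKM in 4 or more of the 8 hearts. FPKM is the number of sequenced fragments of a locus divided by its length in kilobases and scaled to the mapped fragments of the library. Of 80155 loci in all, 40541 carried no symbol, 25296 of these were autosomal and far from any symbol, and 1589 met the level (6.28% of the 25296). The level itself was part of the choice, so that the levels below are a description of the loci and no finding.

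Whole hearts with the atrial appendages removed were taken from male Hsd:ICR(CD-1) mice, an outbred strain, at postnatal day 1 (P1, n = 4) and postnatal day 7 (P7, n = 4). Each heart gave 1 library of total RNA depleted of ribosomal RNA. The mice carried no transgene and received no treatment, and every heart held its full mixture of muscle, vessel, connective tissue and blood cells. Stage was the only difference between the groups that the labels gave. In such bulk samples fewer cells of a type and less RNA per cell cannot be told apart.

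A locus is a stretch in which an assembler joined overlapping reads, and it is without a symbol where none was given to it from the annotation in use. A missing symbol does not mean that no gene lay there, since 2810 autosomal loci without a symbol overlapped a locus with one. Long introns of transcribed genes, long noncoding RNAs, processed pseudogenes (copies of spliced mRNAs inserted elsewhere in the genome) and small structured RNAs are common sources of such stretches. Total RNA depleted of ribosomal RNA holds unspliced precursor RNA as well as mature mRNA, so that reads fall in introns too.

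The description "far from genes" did not hold for much of the set. Positions in the files are on GRCm38 and were compared with GENCODE M21, a later annotation of the same build. In M21, 778 of the 1589 loci (49.0%) overlapped an annotated gene: 486 a protein-coding gene, 214 a long noncoding RNA, 73 a pseudogene and 5 another kind. A further 179 loci overlapped a gene in RefSeq alone. This left 632 loci (39.8%) in no gene of either annotation, and 656 (41.3%) were more than 10000 bases from every M21 gene. The loci are therefore called by their rule, as unannotated far loci, and not as intergenic.

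Between the stages, 24 of the 1589 far loci were called higher in P7 by limma (1.51%, beside 3.45% of all tested loci); a call needed a Benjamini-Hochberg adjusted p below 0.05 and mean levels that differed by 1.5 times or more. Of these 24, 13 lay in a RefSeq gene. For 9 a promoter was found by symbol in the RefSeq table of GRCm38.p6, and in 5 the interval began within 500 bases of the RefSeq start. These 5 promoters are shown because they are the places where the interval of a locus called higher begins near an independently annotated start. The interval of Gm35992 was listed for 6 loci and that of D830013O20Rik for 2. In these the beginning of the interval need not be that of the called locus. The locus of Gm35992 had also passed the level through P7 alone, so that its rise was built into the choice. Each runs from 250 bases before to 50 bases after the start. Gm32954 was read from chr17:79451665-79451964 on the minus strand, Gm36148 from chr1:64516551-64516850 on the plus strand and Gm36149 from chr5:111490630-111490929 on the plus strand. Gm35992 was read from chr1:92379307-92379606 on the plus strand and D830013O20Rik from chr12:73409514-73409813 on the minus strand. Capitals mark matches, on either strand, to TATAAA (the TATA box), CATTCC (the M-CAT element bound by TEAD factors), AAGGTCA (the extended half-site of estrogen-related receptors) or AGATAA (bound by GATA factors).
Gm32954: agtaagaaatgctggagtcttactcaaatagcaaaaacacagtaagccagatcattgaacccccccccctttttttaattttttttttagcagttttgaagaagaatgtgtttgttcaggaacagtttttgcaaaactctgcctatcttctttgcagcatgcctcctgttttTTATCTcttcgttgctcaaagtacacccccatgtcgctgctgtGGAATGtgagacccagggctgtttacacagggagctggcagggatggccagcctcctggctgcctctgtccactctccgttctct
Gm36148: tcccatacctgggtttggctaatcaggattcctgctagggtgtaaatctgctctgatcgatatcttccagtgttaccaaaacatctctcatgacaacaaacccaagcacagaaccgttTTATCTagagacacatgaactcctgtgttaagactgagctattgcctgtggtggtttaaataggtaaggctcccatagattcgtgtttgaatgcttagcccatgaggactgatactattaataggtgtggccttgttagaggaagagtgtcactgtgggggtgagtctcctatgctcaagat
Gm36149: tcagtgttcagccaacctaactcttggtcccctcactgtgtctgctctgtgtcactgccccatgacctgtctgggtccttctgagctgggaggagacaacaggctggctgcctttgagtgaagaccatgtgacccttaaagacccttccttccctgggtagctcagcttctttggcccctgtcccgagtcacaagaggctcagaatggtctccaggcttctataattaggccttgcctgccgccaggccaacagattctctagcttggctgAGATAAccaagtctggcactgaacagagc
Gm35992: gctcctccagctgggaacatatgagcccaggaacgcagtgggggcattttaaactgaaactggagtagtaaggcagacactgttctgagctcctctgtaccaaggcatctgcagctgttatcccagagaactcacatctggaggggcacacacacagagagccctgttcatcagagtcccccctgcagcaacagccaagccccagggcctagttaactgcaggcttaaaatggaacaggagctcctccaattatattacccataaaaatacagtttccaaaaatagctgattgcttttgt
D830013O20Rik: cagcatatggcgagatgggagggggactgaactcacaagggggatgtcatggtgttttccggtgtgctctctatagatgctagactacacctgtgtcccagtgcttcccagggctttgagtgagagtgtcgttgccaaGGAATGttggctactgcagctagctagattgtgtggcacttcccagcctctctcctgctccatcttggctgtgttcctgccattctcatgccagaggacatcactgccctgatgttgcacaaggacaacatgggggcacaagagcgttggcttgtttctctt

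The interval of Gm32954 began 44 bases before the RefSeq start, that of Gm35992 118 bases before it and that of D830013O20Rik 205 bases before it. The intervals of Gm36149 and Gm36148 began 58 and 336 bases after it. TATAAA and AAGGTCA matched in 0 of the 5 promoters, against 13.6% and 4.72% of all 32851 promoters in the table. AGATAA matched once in each of Gm32954, Gm36148 and Gm36149, and 11.2% of all promoters held it. CATTCC matched once in Gm32954 and once in D830013O20Rik, against 14.7% of all promoters. No match overlapped that of another motif. All 5 promoters were poor in CG dinucleotides, with 1 to 4 each, where the median over all promoters was 7. A match of letters is a description and not a bound site.

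The 1589 loci filled 1467 distinct intervals, and 1343 were alone in theirs. Another 140 shared an interval with at least 2 others, since the assembler had merged a cluster of transcripts; for these the interval gives the cluster and not the locus itself. The median interval was 742 bases long (quartiles 355 and 2932, range 102 to 257128). The median distance from the nearest symbol was 55798 bases, 550 loci were at least 100000 bases away and the farthest was 1018290 bases away. Chromosomes 16, 6, 3 and 12 held 236, 229, 200 and 157 of the loci, which was 16.9%, 13.4%, 7.90% and 10.7% of their far loci, against 3.13% on chromosome 1. Much of this came from single genes, as set out below.

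Levels were low in most loci and very high in a few. The mean FPKM over 8 hearts had a median of 1.66 (quartiles 1.20 and 3.12), 1399 loci (88.0%) were under 10, 43 reached 100 and 18 reached 1000. In 454 loci all 8 hearts had FPKM of at least 1, and 424 passed in exactly 4 hearts. Of these 424, 32 passed through the 4 P1 hearts alone and 14 through the 4 P7 hearts alone, so that these 46 had to differ between stages. The 18 loci over 1000 FPKM carried 75.3% to 97.7% of the summed FPKM of the set in each heart. The set as a whole took 11.5% to 23.1% of all FPKM at P1 and 5.69% to 41.5% at P7.

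The files list no fragment numbers. In 1128 of the 1285 loci with their own interval, 1 start and 200 to 20000 bases, however, the FPKM of all 8 hearts were whole multiples (within 0.1, checked below 300 fragments) of what 1 fragment is worth at that length. One fragment was worth 0.0523 to 0.0851 FPKM at 1000 bases and 0.321 to 0.603 at 300 bases. The value of a fragment thus rose more steeply in short loci than division by the interval length alone would give. The heart with the most fragments held a median of 29 in these loci, and 35 of them (3.10%) never reached 10. In loci with 1 start and an interval of just over 100 to under 120 bases the lowest value above 0 was 22.8 to 62.9 FPKM, so that a level in a very short locus rests on few fragments, and 23 of the loci were under 120 bases.

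The hearts showed their labelled tissue. All 13 cardiomyocyte markers examined reached FPKM of at least 1 in every heart, with a summed level of 24250 to 40924 FPKM in P1 and 31759 to 47944 in P7. Endothelial (5 of 5), fibroblast (5 of 5), smooth muscle and pericyte (4 of 4) and red cell (5 of 5) markers did so too, and 3 of 4 leukocyte markers. The leukocyte markers summed to 15.4 to 21.2 FPKM in P1 and to 34.0 to 46.5 in P7. Far loci that reached 1 FPKM, chosen or not, numbered 2291 to 9596 per heart at P1 and 1609 to 2532 at P7; P1 replicate 3 was the highest and P1 replicate 2 the next, with 4166. Loci of olfactory and vomeronasal receptors, which the heart is not known to express, averaged 0.0746 to 0.154 FPKM in P1 and 0.0310 to 0.0636 in P7. The part of these differences in the results below was not tested.

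The number of the 1589 loci that reached 1 FPKM was 1320, 1266, 1180 and 1201 in P1 replicates 1 to 4 and 1233, 1132, 1095 and 1104 in P7 replicates 1 to 4. Their median FPKM was 1.79, 1.55, 1.50 and 1.96 in P1 and 1.63, 1.53, 1.49 and 1.44 in P7. Both stages overlapped in both measures.

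**Figure D1:**
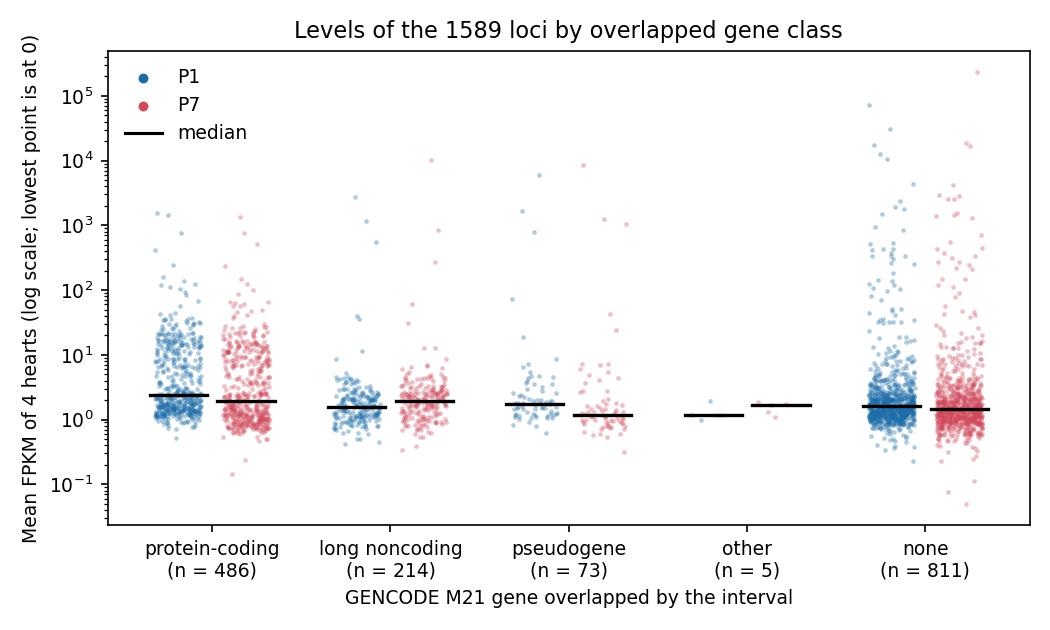
Mean FPKM of each of the 1589 unannotated far loci over 4 P1 hearts (blue) and over 4 P7 hearts (red), on a log scale, by the class of GENCODE M21 gene that the interval overlaps; points are loci and black bars are medians. Loci in protein-coding genes had the highest median (2.10 FPKM over all hearts), and the few loci above 10000 FPKM in both stages lay in no M21 gene.

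Among the loci in an M21 gene, the largest group lay in protein-coding genes, mostly outside their exons. The 486 loci lay in 51 coding genes, and 433 of them touched no exon. The 5 genes with most loci, Cacna1c, Rbfox1, Ank2, Hdac9 and Nav3, held 396. In 35 of the 51 genes the locus with the symbol was over 10000 bases shorter than the M21 gene, and in 15 no locus carried the symbol, which is how a stretch inside a gene could count as far from it. The files give no strand, but locus numbers run along each chromosome more than once. In the first run 92.0% of loci with a symbol belonged to plus-strand genes, and in the second run 94.0% belonged to minus-strand genes. Of 489 pairs of a locus and its coding gene, 449 were numbered in the run of that gene's strand, 9 in the opposite run and 31 in run 3, which held no locus with a symbol. Loci of 1 gene may come from 1 transcript, which was not tested, and they are not taken as independent of each other.

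Cacna1c, which encodes the pore subunit of the cardiac L-type calcium channel, held 159 of the loci in 157 intervals (chr6:118587240-119196418, minus strand). Only 2 touched an exon. Their median FPKM was 15.3, 13, 9.72 and 20.8 in P1 replicates 1 to 4 and 13.4, 10.7, 12.7 and 9.93 in P7 replicates 1 to 4, so the stages overlapped. The locus with the symbol covered chr6:118592319-118780324 and had 31.2, 25, 19.9 and 48.1 FPKM in P1 and 51.8, 41.8, 42.4 and 35.9 in P7. Its log2 difference was 0.52 ± 0.25 (SE; limma, adjusted p = 0.29). The median log2 difference of the 159 far loci was -0.28, with 130 of 159 below 0, beside -0.08 over all tested loci. It was -0.50 with median-ratio scaling (all tested loci -0.21) and -0.54 with quantile normalization (all tested loci -0.04). With a pseudocount of 0.1 it was -0.30 (all tested loci -0.13). Within the gene the level did not decline with distance from the symbol locus: the median P1 level was 14 FPKM in the 49 loci of the first 100 kb, 18.2 and 21.3 in the next 2 stretches of 100 kb (30 and 39 loci) and 12.7 in the last (41 loci).

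In 2 of the 159 loci of Cacna1c the level fell, where 0.371% of all tested loci were called lower. XLOC_061690 (chr6:118800055-118800503) had 4.32, 4.60, 7.44 and 4.88 FPKM in P1 and 2.44, 2.82, 2.44 and 2.83 in P7 (log2 difference -0.77 ± 0.19, adjusted p = 0.0461). Every P7 heart lay below every P1 heart. XLOC_062424 (chr6:119058763-119059051) had 6.27, 4.61, 4.18 and 3.96 FPKM in P1 and 2.77, 2.07, 1.54 and 2.33 in P7 (-0.85 ± 0.20, adjusted p = 0.0362), again with no overlap. Another, XLOC_061822 (chr6:119122669-119125519), was the most even of all 1589, with a coefficient of variation of 6.31%. It ranged from 14.4 to 17.3 FPKM in P1 and from 14.99 to 17.0 in P7.

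Several of the highest values in Cacna1c came from intervals of little over 100 bases. XLOC_062433 (chr6:119110985-119111094) had 739, 1696, 1500 and 1818 FPKM in P1 and 1509, 1582, 865 and 1338 in P7. XLOC_061760 (chr6:118967541-118967656) had 946, 1878, 507 and 2954 in P1 and 377, 373, 881 and 400 in P7. XLOC_062427 (chr6:119073182-119073289) ranged from 146 to 1207 in P1 and from 339 to 1741 in P7. All 3 overlapped between stages and did not pass the test (adjusted p = 0.90, 0.13 and 0.95).

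Rbfox1, an RNA-binding splicing regulator of heart and nerve cells, held 137 loci in 128 intervals (chr16:5885355-7411526, plus strand), all numbered in the plus-strand run and 136 of them outside exons. The locus with the symbol began at base 6809222, so that the upstream part of the M21 gene carried no symbol; the farthest of the 137 loci was centred 925 kb before it. Their median FPKM was 1.86, 1.41, 1.07 and 2.18 in P1 and 1.38, 0.894, 0.856 and 0.856 in P7. P7 replicate 1 lay within the P1 range, and the other 3 P7 hearts lay below it. The median log2 difference was -0.39, beside -0.08 over all tested loci, and 133 of 137 were below 0. With a pseudocount of 0.1 the median was -0.67 (all tested loci -0.13). It was -0.52 with median-ratio scaling (all tested loci -0.21) and -0.29 with quantile normalization (all tested loci -0.04). The symbol locus had 8.71, 6.41, 4.90 and 10.5 FPKM in P1 and 20.6, 12.5, 13.4 and 11.6 in P7 (0.86 ± 0.25, adjusted p = 0.0788). The stages did not overlap in the symbol locus, which was higher in P7. All P7 hearts lay below all P1 hearts in 22 of the 137 far loci, beside 4.03% of all tested loci. These 22 include XLOC_026612, XLOC_026654, XLOC_026790 and XLOC_026553, which had passed the level through the P1 hearts alone. Such loci had to be separate by the choice, so that the count is no support for a fall. The difference between the symbol locus and the far loci was not tested.

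Of the 137 loci in Rbfox1, 4 were called lower and 0 higher, beside 0.371% and 3.45% of all tested loci. All 4 had passed the level through the P1 hearts alone, so that a lower level in P7 was built into their choice, and their tests are no support for a fall. XLOC_026612 (chr16:6272993-6273266) had 4.71, 4.03, 2.35 and 3.76 FPKM in P1 and 0, 0, 0.583 and 0 in P7, which corresponded to 12, 7, 5 and 5 fragments against 0, 0, 1 and 0. Its log2 difference was -2.04 ± 0.23 (adjusted p = 0.0025). XLOC_026654 (chr16:6377714-6378329) had 1.36, 1.74, 1.21 and 2.13 in P1 and 0.305, 0.358, 0.276 and 0 in P7 (-1.08 ± 0.20, adjusted p = 0.0181). XLOC_026790 (chr16:6699115-6699448) and XLOC_026553 (chr16:6106897-6107279) had log2 differences of -1.02 and -0.88 (adjusted p = 0.0300 and 0.0423). No P7 heart reached the lowest P1 heart in any of the 4.

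**Figure D2:**
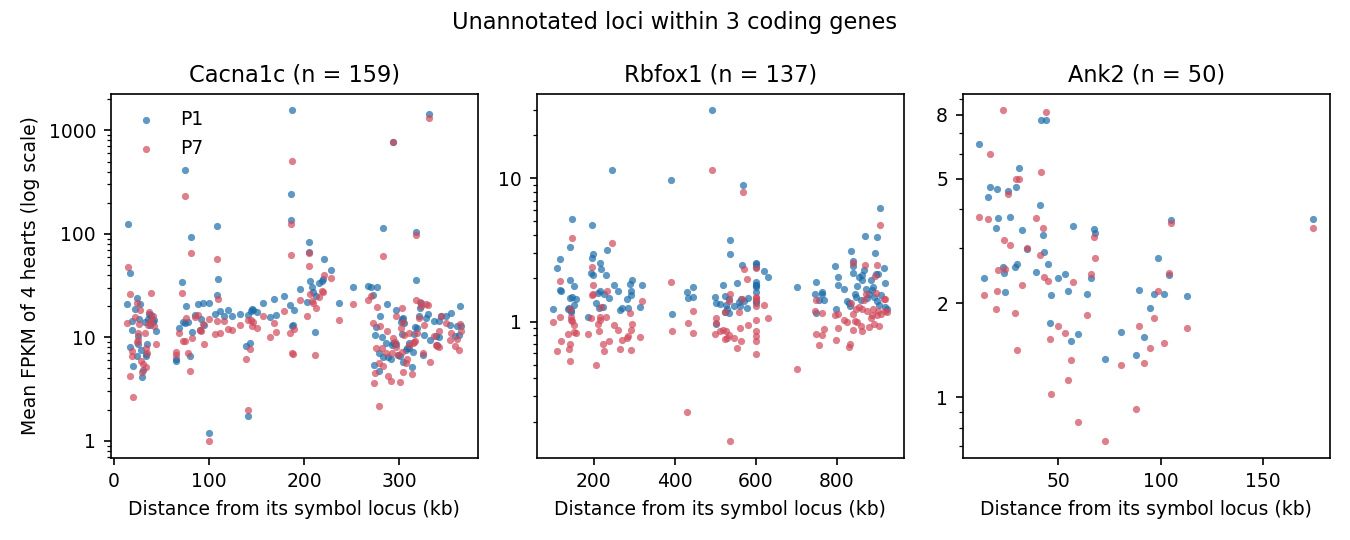
Mean FPKM over 4 P1 hearts (blue) and 4 P7 hearts (red), on log scales that differ between panels, of the unannotated far loci within Cacna1c (159), Rbfox1 (137) and Ank2 (50), against the distance of the locus centre in kilobases from the locus that carries the gene's symbol. Most loci of Rbfox1 sit near 1 to 2 FPKM over the whole stretch and most of Cacna1c near 10 to 20, with single short loci far above.

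Ank2 encodes ankyrin-B, which anchors ion channels and transporters in heart muscle. It held 50 loci (chr3:126921612-127499350), all in the run of its strand, with a median FPKM of 2.88, 2.81, 1.97 and 3.03 in P1 and 2.68, 1.99, 2.52 and 1.92 in P7. Its symbol locus was higher, at 14.96 to 21.8 in P1 and 14.4 to 22.0 in P7. Of the 50 far loci 0 were called in either direction, and the stages overlapped in both medians.

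Hdac9, a histone deacetylase that represses the muscle factor MEF2, held 28 loci (chr12:34047580-34917095). The median FPKM over them ranged over hearts from 1.03 to 1.25 at P1 and from 1.02 to 1.52 at P7, and 0 were called. Nav3, a protein of microtubule ends, held 22 (chr10:109681259-110456204), of which 10 shared the interval chr10:110208676-110455836. Their median FPKM was 2.02, 1.50, 1.50 and 1.86 in P1 and 1.71, 0.903, 0.913 and 0.859 in P7, and all 22 had a log2 difference below 0. Of the 22, 1 was called lower, beside 0.371% of all tested loci. This locus, XLOC_008891 in the shared interval, had 7.98, 2.31, 2.79 and 3.21 FPKM in P1 and 1.28, 1.84, 0 and 0 in P7 (-1.55 ± 0.39, adjusted p = 0.0460). The Nav3 symbol locus had 2.82 to 3.92 FPKM in P1 and 4.07 to 5.98 in P7 (0.55 ± 0.18, adjusted p = 0.13), so that its hearts did not overlap, in the other direction from XLOC_008891.

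Smaller groups lay in Maml2 (9 loci), a coactivator of Notch signaling, in Nhsl1 (7), in Fgf12 (6), an intracellular regulator of sodium channels, in Srpk2 (6), a kinase of splicing factors, and in Mical3 (5), an enzyme that acts on actin. None of these loci was called. Fhl2, a LIM domain protein abundant in heart muscle, stood out by level: its 6 loci had a median of 32.5, 23.1, 17.4 and 26.3 FPKM in P1 and 29.2, 27.9, 49.5 and 33.8 in P7, beside 154 to 287 and 220 to 430 in its symbol locus. In Naaladl2, 1 of 5 loci was called higher, beside 3.45% of all tested loci. This locus, XLOC_046056 (chr3:25099005-25099283), had 1.88, 1.11, 0.902 and 0 FPKM in P1 and 2.40, 3.57, 2.79 and 5.57 in P7 (1.27 ± 0.31, adjusted p = 0.0423), from 0 to 5 fragments against 4 to 11.

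The longer gene models of RefSeq added further groups. Samd5 overlapped 15 loci, and 1 of them was called lower, beside 0.371% of all tested loci. This locus, XLOC_007366 (chr10:9609558-9609907), had 1.18, 2.45, 2.02 and 5.62 FPKM in P1 and 1.13, 0, 0 and 0.314 in P7 (-1.44 ± 0.34, adjusted p = 0.0360). The 19 loci overlapping Gm38702 had a median of 1.46 to 2.59 FPKM in P1 and 1.50 to 2.27 in P7, and 0 were called.

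Long noncoding RNAs of M21 overlapped 214 loci, 87 of them in an exon. Their median log2 difference was 0.17, whereas that of the loci in coding genes was -0.27, of those in pseudogenes -0.22 and of those in no M21 gene -0.10; these are descriptions without a test. Of the 214, 6 were called higher and 2 lower (3.74% called, beside 3.82% of all tested loci). The falls, XLOC_006169 and XLOC_032602, had passed the level through P1 alone. The rises XLOC_023956 and XLOC_048166 had passed it through P7 alone. The largest run belonged to Gm30382, a long noncoding RNA on the minus strand of chromosome 3 (chr3:149284418-149445301 in M21), with 75 loci counting those in its longer RefSeq span. In these 75 the median FPKM was 1.91, 1.76, 1.15 and 2.56 in P1 and 2.33, 1.69, 2.25 and 2.26 in P7, and 51 had a log2 difference above 0. Of the 75, 62 were numbered in the minus-strand run and 13 in run 3.

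In Gm30382, 2 of 75 loci were called higher and 0 lower, beside 3.45% and 0.371% of all tested loci; XLOC_048166 had passed the level through P7 alone. XLOC_048191 (chr3:149418303-149418913) had 0.883, 0.735, 0.858 and 1.66 FPKM in P1 and 3.86, 1.69, 3.77 and 3.94 in P7 (1.06 ± 0.24, adjusted p = 0.0323). XLOC_048166 (chr3:149351916-149352352) had 0.645, 0.721, 0.199 and 0.852 in P1 and 2.29, 2.16, 1.63 and 2.96 in P7 (1.03 ± 0.21, adjusted p = 0.0227). The hearts of the stages were separate in both, though in XLOC_048191 the lowest P7 heart was only just above the highest P1 heart.

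Among the other long noncoding RNAs that rose, Gm48483 had the largest difference. Its locus XLOC_007532 (chr10:18879667-18887066), between Perp and Tnfaip3, had 2.95, 2.32, 1.36 and 1.44 FPKM in P1 and 12.1, 5.81, 11.8 and 4.44 in P7 (1.59 ± 0.30, adjusted p = 0.0184). Gm31518 (XLOC_070969, chr8:95589736-95600041) had 1.13, 0.841, 0.699 and 1.68 in P1 and 7.10, 4.76, 2.56 and 2.74 in P7 (1.28 ± 0.27, adjusted p = 0.0258); its locus was numbered in the run opposite to the M21 strand. D830013O20Rik (XLOC_016360, chr12:73394201-73409768), whose promoter is shown above, had 2.90, 2.15, 1.98 and 4.04 in P1 and 7.09, 4.63, 6.82 and 5.26 in P7 (0.90 ± 0.22, adjusted p = 0.0402). The hearts of the stages were separate in all 3.

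The other promoters shown above belonged to long noncoding RNAs of RefSeq whose loci overlapped no M21 gene. Gm32954 (XLOC_032508, chr17:79437902-79451758) had 1.46, 0.939, 1.75 and 0.738 FPKM in P1 and 7.54, 5.18, 3.18 and 2.77 in P7 (1.30 ± 0.27, adjusted p = 0.0233). Gm36148 (XLOC_001002, chr1:64517137-64518630), beside Creb1, had 1.84, 0.678, 1.28 and 1.25 in P1 and 4.96, 2.13, 6.52 and 3.76 in P7 (1.19 ± 0.27, adjusted p = 0.0324). Gm36149 (XLOC_054917, chr5:111490938-111492459), beside Mn1, had 2.18, 0.408, 0.681 and 0.915 in P1 and 3.71, 2.91, 4.77 and 2.58 in P7 (1.18 ± 0.26, adjusted p = 0.0299). In each the lowest P7 heart exceeded the highest P1 heart, by the least in Gm36148. Gm35992 (XLOC_001335, chr1:92379439-92393706) was called too, at 0.0964 to 0.977 FPKM in P1 and 1.46 to 3.48 in P7 (1.12 ± 0.25, adjusted p = 0.0324), but it had passed the level through P7 alone.

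Of the long noncoding RNAs with a name of their own, Eprn was the highest. Its locus XLOC_019824 (chr13:73344610-73347452) had 9.15, 8.84, 9.58 and 18.5 FPKM in P1 and 14.2, 11.8, 15.8 and 9.02 in P7 and did not pass the test (0.17 ± 0.25, adjusted p = 0.70). Lockd, which lies downstream of the cell cycle inhibitor gene Cdkn1b, held 3 loci whose mean FPKM ranged from 1.12 to 2.60. In 1 of them, XLOC_059822 (chr6:134952464-134953396), P1 had 0.625, 0.513, 0.931 and 1.77 and P7 1.87, 1.76, 2.24 and 1.61 (0.59 ± 0.22, adjusted p = 0.17). The locus of Tbx3os1, antisense to the conduction system factor gene Tbx3, had 0 to 1.89 FPKM in P1 and 0.831 to 2.53 in P7 (adjusted p = 0.24). That of Zmiz1os1 had 0.234 to 1.71 and 1.37 to 3.10 (adjusted p = 0.20), and the 4 loci of D5Ertd615e had mean levels of 0.869 to 1.08. None of these differed between the stages by the test, and the stages overlapped in all of them.

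Pseudogenes overlapped 73 loci, but 29 of these shared 1 merged interval (chr12:74340268-74517493) that contains Gm9544. In these 29 the median FPKM was 1.90, 1.04, 1.01 and 2.16 in P1 and 1.51, 0.984, 0.733 and 0.746 in P7, all 29 had a log2 difference below 0, and 0 were called. Several short pseudogene loci were among the highest of the whole set. The part of XLOC_047616 inside Gm19243 (chr3:117222960-117223046) was 100% identical over 87 bases to a transcript of Rps27rt, which encodes a small ribosomal subunit protein. Its locus had 0, 9361, 6062 and 8649 FPKM in P1 and 6711, 2987, 12752 and 11446 in P7 (adjusted p = 0.44), an interval of 102 bases listed at 0 in 1 heart and at 2987 or more in the others.

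XLOC_026284 in Gm9108 (chr15:103587096-103587202) was 99.1% identical over its 107 bases to Hadhb, a subunit of the mitochondrial enzyme complex of fatty acid oxidation. It had 680, 2190, 2381 and 1490 FPKM in P1 and 510, 1679, 1763 and 1113 in P7 (adjusted p = 0.59). XLOC_005857 in Gpx4-ps2 (chr10:45875967-45876076) was identical over 100 of its 110 bases to Gpx4, the peroxidase that reduces lipid peroxides, and had 636 to 1108 FPKM in P1 and 377 to 1514 in P7 (adjusted p = 0.73). Over identical bases, reads of a copy and of its parent gene cannot be told apart, and XLOC_026284 differed from Hadhb at a single base, so the levels of all 3 are uncertain.

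Of the 73 pseudogene loci, 1 was called higher and 1 lower, beside 3.45% and 0.371% of all tested loci. XLOC_071140 (chr8:109339800-109340787), which overlaps Gm1943, had 0.690, 0.160, 0.735 and 1.56 FPKM in P1 and 5.15, 4.60, 6.42 and 5.58 in P7, or 13, 2, 11 and 18 fragments against 62, 70, 86 and 82. Its log2 difference was 1.90 ± 0.24 (adjusted p = 0.00379). The 97 bases of the locus that lie in the Gm1943 exon were identical to a transcript of Wdr70, a protein with WD repeats; the other bases were not compared. XLOC_033202 (chr18:28188637-28188983), which overlaps the pseudogene AC168306.1, had 75.3, 85.4, 68.5 and 66.9 FPKM in P1 and 41.6, 48.2, 36.1 and 44.0 in P7 (-0.79 ± 0.18, adjusted p = 0.0343). Its sequence was not compared with coding transcripts, so whether its reads can be told from those of a parent gene was not examined. Both called loci were without overlap between stages.

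Transfer RNA genes of RefSeq overlapped 7 loci. Their levels were 2.10 to 24.5 FPKM in P1 and 0 to 28.6 in P7 apart from the locus over n-TEttc6, which had 0.884 to 1.34 in P1 and 1.09 to 4.96 in P7. None was called. The locus over n-TCgca57 (XLOC_058495, chr6:47978990-47979277) came nearest, with 2.10, 5.68, 4.63 and 3.32 in P1 and 6.70, 6.66, 10.9 and 9.88 in P7 (0.98 ± 0.26, adjusted p = 0.0552). Its hearts did not overlap. The loci over n-TKctt30, n-TLtaa4 and n-TRtct1 were neighbours within chr19:12009531-12011700.

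The 632 loci in no gene of either annotation had a median mean level of 1.53 FPKM. Of these, 10 were called higher and 9 lower, beside 3.45% and 0.371% of all tested loci. Among the rises, XLOC_068478, XLOC_027965, XLOC_058461, XLOC_009784 and XLOC_056838 had passed the level through P7 alone. Among the falls, XLOC_043289, XLOC_057948, XLOC_041407 and XLOC_047172 had passed it through P1 alone. All of these had to differ by the choice, so that nothing is read from the counts. The rises included all 4 loci of 1 merged interval of 21017 bases (chr8:40124610-40145626) between Msr1 and Efha2, 133539 bases from the nearest symbol. XLOC_068475 had 4.44, 3.6, 1.97 and 2.81 FPKM in P1 and 25.8, 11.8, 17.6 and 10.3 in P7 (2.00 ± 0.28, adjusted p = 0.00615), the largest rise among the called loci on the log2(FPKM + 1) scale, though not by the ratio of means. XLOC_068477 was the highest of the 4, with 14.5, 12.2, 6.64 and 13.1 in P1 and 66.5, 29.9, 43.9 and 28.3 in P7 (1.74 ± 0.30, adjusted p = 0.0126). XLOC_068478, which passed the level through P7 alone, was at 0.328 to 0.475 in P1 and 1.91 to 5.40 in P7, and XLOC_068476 at 0.531 to 1.41 and 1.67 to 5.0. In all 4 every P7 heart exceeded every P1 heart, and P7 replicate 1 was the highest. They share a cluster of transcripts and count as 1 place in the genome.

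XLOC_027965 and XLOC_058461 passed the level through the P7 hearts alone, so that a higher level in P7 was built into their choice. XLOC_027965 (chr16:87636214-87636631) lay between a U6 locus, the nearer at 15093 bases, and Bach1. It was at 0 in 3 P1 hearts and at 0.923 in the fourth, and at 3.57, 3.37, 1.75 and 2.96 in P7 (1.70 ± 0.26, adjusted p = 0.00796). That was 0, 0, 0 and 3 fragments against 13, 16, 7 and 13. Longer intervals without a gene were called as well: XLOC_058461 (chr6:44572022-44587141), 472919 bases from the nearest symbol, had 0.682 to 0.852 FPKM in P1 and 1.51 to 2.94 in P7 (0.86 ± 0.19, adjusted p = 0.0319). XLOC_058547 (chr6:51329274-51339657) lay between Mir148a and AC168278.1, the nearer at 40052 bases. It had 0.927 to 2.61 in P1 and 3.08 to 5.79 in P7 (1.07 ± 0.24, adjusted p = 0.0324), with 171 to 390 fragments against 566 to 976. XLOC_063801 (chr7:67488026-67488333) lay between Mef2a and Lrrc28, and Lrrc28 was the nearer, at 24475 bases. Its stages overlapped, at 0.304 to 1.47 and 1.45 to 7.16 FPKM (1.29 ± 0.32, adjusted p = 0.0468).

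Falls in loci without a gene were mostly in short intervals. XLOC_038426 (chr2:75748540-75748762) had 3.37, 5.87, 7.10 and 5.36 FPKM in P1 and 1.08, 0, 0 and 0 in P7 (-2.38 ± 0.28, adjusted p = 0.00265). XLOC_029567 (chr17:16133143-16133297) had 6.01, 16.8, 37.1 and 6.30 in P1 and 0, 3.22, 0 and 4.26 in P7 (-2.65 ± 0.62, adjusted p = 0.0364). XLOC_043289 (chr3:8245890-8246182) had 1.35, 7.46, 4.87 and 1.91 in P1 and 0.453 in 1 P7 heart, the other 3 being at 0 (-1.97 ± 0.35, adjusted p = 0.0150). XLOC_043289 and XLOC_057948 passed the level through the P1 hearts alone, so that their lower level in P7 was built into the choice. They also rest on small numbers: in XLOC_043289 there were 4, 15, 12 and 3 fragments in P1 and 1 in P7. XLOC_057948 (chr6:13853767-13854101) had 9, 11, 4 and 7 fragments in P1 and 1 in P7, and a log2 difference of -1.75 (adjusted p = 0.00694). XLOC_042023 (chr2:109058004-109058189) had the largest difference of the called loci on the log2(FPKM + 1) scale, though not by the ratio of means, -3.44 ± 0.78 (adjusted p = 0.0328), but its stages overlapped, with 56.2, 17.9, 53.2 and 2.55 in P1 and 0, 4.24, 1.89 and 0 in P7. A longer locus that fell, XLOC_039147 (chr2:114079793-114083957), had 189 to 281 fragments in P1 and 75 to 113 in P7 (-0.80 ± 0.19, adjusted p = 0.0346).

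Falls also lay in loci that overlap a gene in RefSeq but none in M21. XLOC_066222 (chr7:48739525-48739765) in Gm45086 had 4.32, 2.37, 1.28 and 2.12 FPKM in P1, from 2 to 8 fragments, and was listed at 0 in all 4 P7 hearts (adjusted p = 0.00615); it too had passed through the P1 hearts alone. XLOC_068184 (chr8:19713412-19713593) in 4930467E23Rik had 10.9, 3.91, 6.28 and 2.79 in P1 and 0, 1.54, 2.07 and 0 in P7 (-1.92 ± 0.42, adjusted p = 0.0285). Neither overlapped between the stages.

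The question the design put to these loci was which of them differed between hearts taken at P1 and hearts taken at P7. By limma on log2(FPKM + 1), fitted over the 43172 loci that reached 1 FPKM in any heart, 3.82% of all tested loci were called. Of the 1589 far loci 49 were called (3.08%), 24 higher and 25 lower in P7. Of these 49 calls, 22 were among the 46 loci that passed the level through 1 stage alone, 9 of the 24 rises through P7 and 13 of the 25 falls through P1, so that these had to differ by the choice. The other 1543 loci held 27 calls, 15 higher and 12 lower. The directions differed from those of the whole table: 3.45% of all tested loci were called higher and 0.371% lower, beside 1.51% and 1.57% of the far loci. With median-ratio scaling the split was 23 higher and 94 lower, and 1538 and 979 over all tested loci. Leaving out P1 replicate 2 alone left 12 calls among the far loci, and leaving out P1 replicate 4 gave 95. With hearts of replicate number 2 left out of both stages, 4 far loci were called, 2 in each direction. The level filter was part of the choice of the loci, so their count is given beside the background and no more is read from it.

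All P7 hearts were above all P1 hearts in 62 far loci (3.90%, against 8.5% of all tested loci) and below in 81 (5.10%, against 4.03%). The 62 hold the 14 loci that passed the level through P7 alone, and the 81 hold the 32 that passed through P1 alone. These had to be separate by the choice. Of the 49 called, 47 were separate in this way. The median interval was 4970.5 bases long in the 24 called rises and 347 in the 25 called falls. Rises and falls both held loci in merged intervals, where the length is that of the cluster. Among these were 4 rises in 1 interval of 21017 bases. With 22 of the 49 calls passing the level through 1 stage alone, the lengths are a description, and their difference was not tested. Intervals under 400 bases made up 2 of the rises and 16 of the falls, and at least 1 P7 heart was at 0 in 14 of the falls. By class, protein-coding genes held 1 rise and 7 falls, long noncoding RNAs 6 and 2, pseudogenes 1 and 1, and loci in no M21 gene 16 and 15. Over all tested loci 3.45% were called higher and 0.371% lower. The called falls in Rbfox1 and the long noncoding falls had passed the level through P1 alone. The long noncoding rises XLOC_023956 and XLOC_048166 had passed through P7 alone, and the calls in no M21 gene held loci of both kinds. The class counts therefore rest in part on the choice. The 13 called loci not given singly with their values comprised 5 rises of 0.79 to 1.08 and 8 falls of 0.83 to 1.57 on the log2 scale. All of these but XLOC_072947, XLOC_011707 and XLOC_051413 had passed the level through 1 stage alone, so that they had to differ by the choice.

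**Figure D3:**
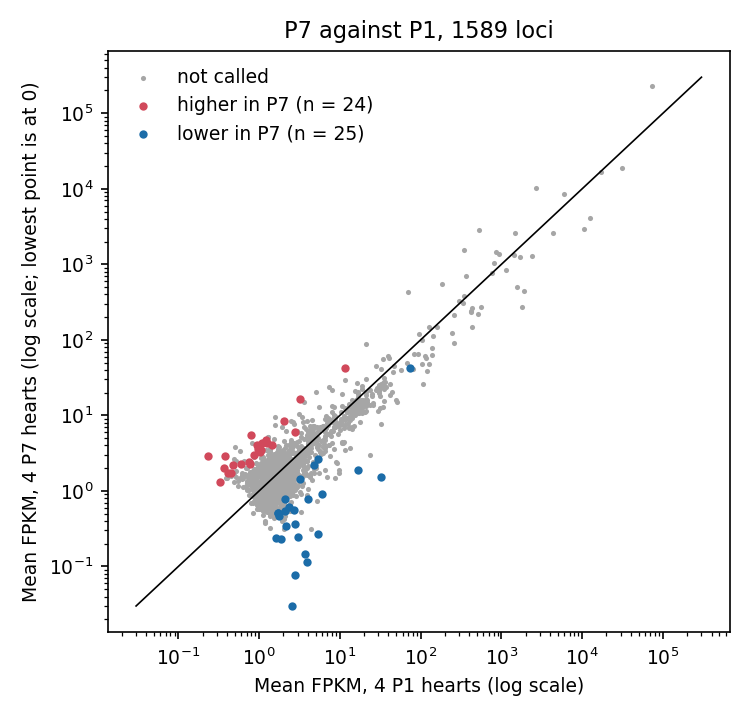
Mean FPKM over 4 P7 hearts against mean FPKM over 4 P1 hearts for the 1589 unannotated far loci, both on log scales, with the line of equal levels; red points are the 24 loci called higher in P7 and blue points the 25 called lower. Most called loci lie between 0.1 and 10 FPKM, and the loci above 1000 FPKM in both stages are grey.

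**Figure D4:**
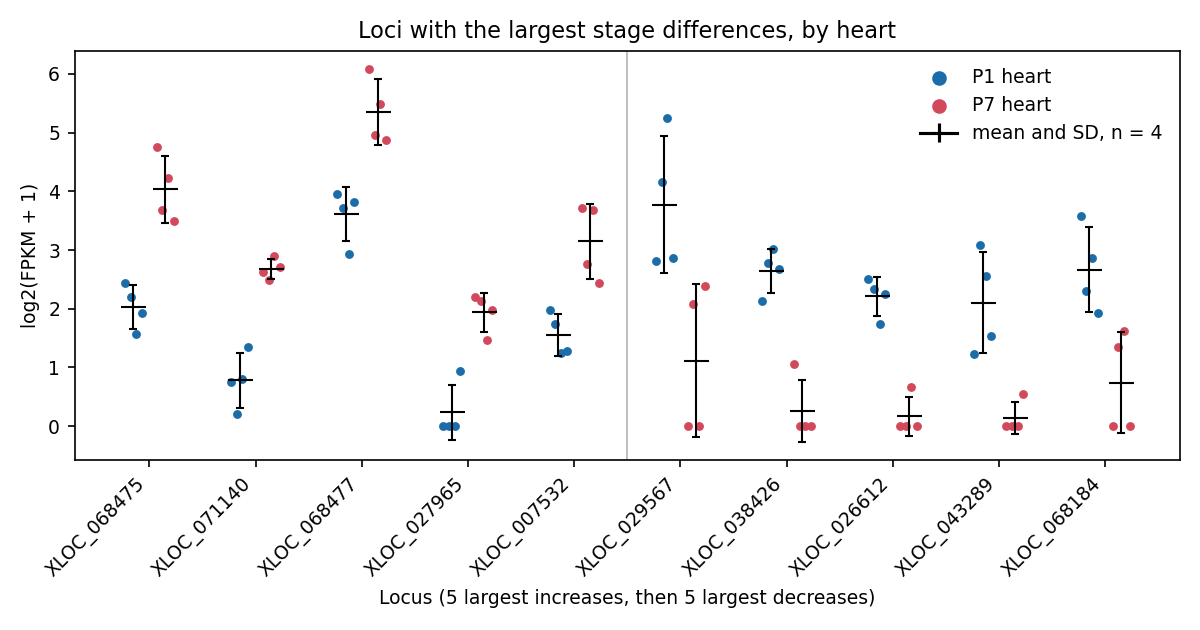
Values of log2(FPKM + 1) in each P1 heart (blue) and P7 heart (red), with mean and SD (n = 4), for the 5 loci with the largest rises and the 5 with the largest falls among called loci whose stages did not overlap. In the falls most P7 hearts sit at 0, and XLOC_029567 has the widest spread among the P1 hearts.

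As comparison, the same level filter left 1353 unannotated loci that overlap a locus with a symbol and 1376 within 10000 bases of one. Of these 2.37% and 3.63% were called, with 25 rises and 7 falls in the first and 32 and 18 in the second, and 9.57% of 14876 autosomal loci with a symbol were called (1362 rises and 62 falls). The median log2 difference was -0.14 in the far loci, 0.06 in each of the other 2 unannotated groups and 0.22 in the loci with a symbol, beside -0.08 over all tested loci. The share of loci above 0 was 37.4% in the far loci and 43.5% over all tested. These groups share the same hearts, and no test of the difference between them was made.

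The highest levels of the set lay in intervals listed for 2 loci, 1 in the plus-strand run and 1 in the minus-strand run. There were 18 such pairs, 7 of them with a summed level of at least 100 FPKM. At chr1:102628184-102628338, in no gene of either annotation, XLOC_001559 had 76315, 6417, 155682 and 51297 FPKM in P1 and 95298, 52336, 13815 and 762014 in P7. Its partner XLOC_003957 had 4529, 52339, 9983 and 1571 in P1 and 5394, 15257, 426 and 46128 in P7. In 6 hearts 94.0% to 97.0% of the pair lay in XLOC_001559, in P7 replicate 2 77.4% and in P1 replicate 2 10.9%. At this interval of 155 bases the hearts of 1 stage differed widely, and neither locus was called (adjusted p = 0.62 and 0.90).

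The pair at chr3:5860335-5860777 went the same way. XLOC_045572 had 24821, 1798, 74237 and 22882 FPKM in P1 and 49640, 22170, 2690 and 0 in P7. Its partner XLOC_043234 had 2098, 44998, 2855 and 481 in P1 and 1612, 14846, 98.8 and 0 in P7. Both were listed at 0 in P7 replicate 4, the heart with the highest value at the pair on chromosome 1. The leading locus held 92.2% to 97.9% in the 5 other hearts that had a value, 59.9% in P7 replicate 2 and 3.84% in P1 replicate 2. Within Gm19951 at chr12:99645083-99645679 the leading share was 86.9% to 97.6% in 6 hearts, 58.8% in P7 replicate 2 and 19% in P1 replicate 2.

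In 6 of the 7 high pairs the share of the leading locus was lower in P1 replicate 2 than in any heart outside the replicates 2, and in 5 of 7 it was so in P7 replicate 2. In the 11 pairs under 100 FPKM this held in 1 and 3. The pair within Fhl2, XLOC_000612 and XLOC_003232, had 94.1% and 93.9% in its leading locus in these hearts, beside 95.5% to 99.3% in the others. The leading locus was set by the 6 other hearts, and the shares are given as a description.

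**Figure D5:**
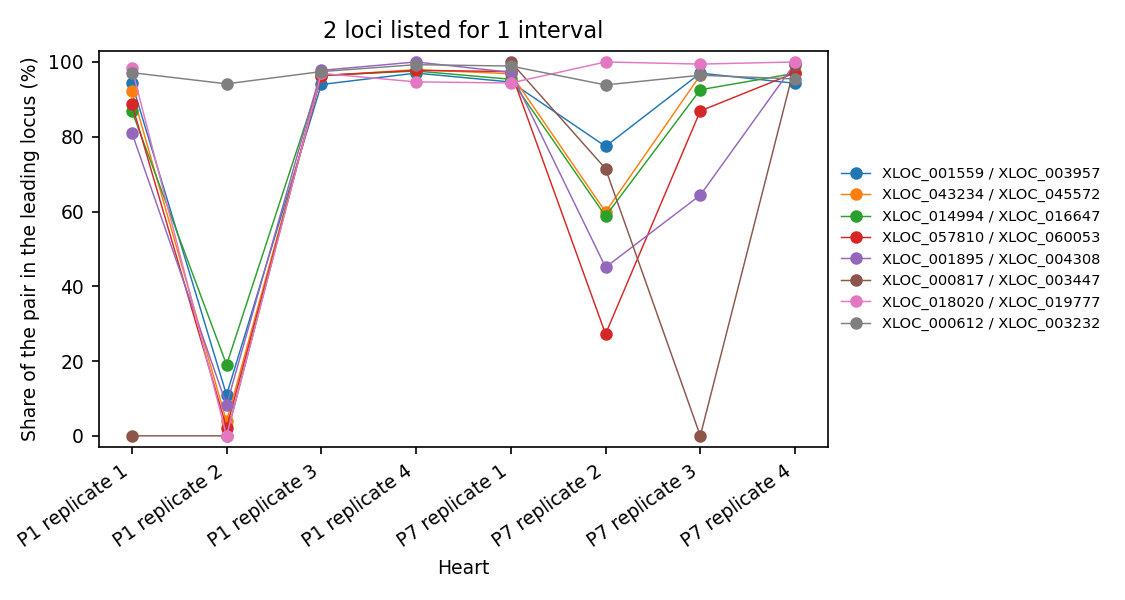
Share in percent of the summed FPKM of 2 loci listed for the same interval that lies in the leading locus (the one higher on average in the 6 hearts that are not replicate 2), by heart, for the 8 pairs with the highest sums. In 6 of the 7 pairs over 100 FPKM, P1 replicate 2 lies below every heart of another number, and the pair within Fhl2 (grey) stays between 93.9% and 99.3%.

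Some high loci outside pairs were also set by the replicates 2. XLOC_068124 (chr8:15519771-15520081) had 2574, 39043, 175 and 70.7 FPKM in P1 and 93.8, 11462, 82.8 and 191 in P7. XLOC_033734 (chr18:68692055-68692293) had 83.5, 1957, 5.87 and 55.4 in P1 and 187, 10694, 193 and 385 in P7. In contrast XLOC_000207 (chr1:15067245-15067365), which overlaps the pseudogene Gm5048 of RefSeq, was even, with 1778, 1672, 1026 and 1487 in P1 and 2145, 2452, 3604 and 2110 in P7 (0.78 ± 0.27, adjusted p = 0.14). All P7 hearts were above all P1 hearts there. XLOC_018352 (chr13:89450014-89450117) had 2354 to 6000 in P1 and 885 to 3800 in P7, and XLOC_000167 (chr1:12269199-12269301) had 0 to 6179 and 0 to 3742.

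The farthest locus, XLOC_007474 (chr10:16003088-16003532), lay 1018290 bases from the nearest symbol and had 1.10, 1.40, 1.55 and 0 FPKM in P1 and 0, 2.29, 0 and 0 in P7. The next, XLOC_044217 (chr3:71748068-71748530, 940752 bases), had 0.257 to 1.32 and 0.211 to 1.79. The other 3 of the 5 farthest lay within Rbfox1, at levels of 0.951 to 2.33 in P1 and 0.283 to 2.04 in P7. The longest interval, chr6:130735399-130992526, belonged to a merged cluster over several Gm genes, in which XLOC_062092 had 0.544 to 3.64 in P1 and 0.669 to 1.32 in P7. It was not called, nor were the 5 farthest. The next longest interval was the one shared by 10 loci in Nav3, of which XLOC_008891 was called lower, as given above.

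The most even loci lay in protein-coding genes or in no M21 gene. After XLOC_061822 in Cacna1c, the lowest coefficients of variation over the 8 hearts were 9.24% in XLOC_048808 (chr4:31455657-31493172, no gene), 10.1% in XLOC_006534 (chr10:83392207-83405105, an exon of D10Wsu102e), 10.4% in XLOC_038961 (chr2:107360977-107368373, beside Kcna4) and 11.2% in XLOC_038973 (chr2:107462202-107465916, no gene). XLOC_038961 ranged from 2.66 to 3.27 FPKM in P1 and from 2.39 to 3.05 in P7. The log2 differences of these 4 were -0.04 to -0.06 with SEs of 0.17.

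At the edges of the rule, the fourth highest heart had 1.00 FPKM in XLOC_034131 and XLOC_054429, just inside, and 1.00 and 0.999 in XLOC_048342 and XLOC_014583, just outside. XLOC_045939 and XLOC_042295 lay 10020 and 10039 bases from a symbol, and XLOC_030438 and XLOC_054432, left out, lay 9983 and 9925 bases from one.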

How the data were processed

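The deposited files held FPKM per locus for each of 8 hearts; per the labels and the study's methods, the authors' provider aligned paired reads of ribosome-depleted total RNA to GRCm38 with Ensembl 70 and normalized them. The aligner and assembler are not given in the sources used here. Starts in the files count from 0 and were written from 1. The 43172 loci that reached 1 FPKM in any heart were compared on log2(FPKM + 1) with limma 3.58.1 in R 4.3.3 (lmFit, eBayes with trend, all 8 hearts, no covariate), with Benjamini-Hochberg adjustment over all of them. Fold changes on this scale understate those of low loci. The groups are separate hearts. Overlaps used GENCODE M21 and RefSeq, and pseudogene sequence was compared with M21 coding transcripts by blastn 2.17.0. Replicate numbers were not taken to pair the hearts.

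The members and lists were chosen with earlier results of these data known. Named loci were the 12 highest, the 12 largest called rises and falls without overlap, other called loci in part, the 5 longest, 5 farthest and 5 most even, those at the thresholds, the 10 highest in an M21 gene and the 10 of named long noncoding RNAs; loci over transfer RNAs, pairs in 1 interval and gene groups were added after their values were seen. On simulated data, 200 of 43172 loci, all of them far loci, were shifted by the log2 of 2 or of 4 on the log2(FPKM + 1) scale. Of these, 9 were recovered at 2 and 138 at 4, with 0 and 7 unchanged loci called. In low loci such a shift is not a 2-fold or 4-fold change of FPKM, so the recovery of changes of that size was not measured. Alternatives were a pseudocount of 0.1, other filters and distances, median-ratio and quantile scaling, a replicate block, no trend and leaving out each heart. Python 3.11.15 with pandas 2.3.3 was used throughout.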

Additional observations from a re-analysis of the deposited data

Results flagged for a closer look

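In 114 groups of 4 hearts, 22 had 1 heart set apart from the other 3 by a gap that exceeded Dixon's critical value. The ratio is the gap over the group's whole range. The rate of about 1 group in 20 by chance holds for independent groups of normally distributed values. The flagged values were on the FPKM scale, many in loci chosen for their level or difference. Some groups also share an interval, and the summed FPKM includes that of XLOC_001559. The count of 22 is therefore a description and is not set against chance. The summed FPKM of the far loci was set apart in P7 replicate 4 (ratio 0.851), with 886392 against 61299 to 184227. The same heart set apart XLOC_001559 (0.891), with 762014 against 13815 to 95298, and XLOC_016647 in Gm19951 (0.914). P1 replicate 2 was set apart at XLOC_003957 (0.834), XLOC_043234 (0.947), XLOC_068124 (0.936) and XLOC_033734 (0.960). P7 replicate 2 was set apart at XLOC_043234 (0.891), XLOC_068124 (0.990) and XLOC_033734 (0.981).

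P7 replicate 1 had the highest median of the loci in Rbfox1 (0.928), with 1.38 FPKM against 0.856 to 0.894, and of those in Nav3 (0.936), with 1.71 against 0.859 to 0.913. It was also highest at XLOC_068478 (0.867). P1 replicate 4 was set apart at the Eprn locus XLOC_019824 (0.923), at the Lockd locus XLOC_059824 (0.934) and at XLOC_027965 (1.00), where the other 3 P1 hearts were at 0. P1 replicate 3 was highest at XLOC_041407 (0.863) and P1 replicate 1 at XLOC_008891 (0.842). In XLOC_038426, XLOC_026612, XLOC_043289 and XLOC_057948 only 1 P7 heart was above 0 (ratio 1.00 in each). A ratio of 1.00 follows wherever the other 3 hearts are at 0, however low the remaining heart is. No cause of these values was tested.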

How the results depend on the processing

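The count of far loci called (49: 24 higher, 25 lower) depended on the hearts and the processing. It was 6 (3 and 3) with no filter, 117 (23 and 94) with median-ratio scaling, 82 (32 and 50) with quantile normalization and 4 (2 and 2) without both replicates 2, an alternative chosen after seeing the data. Leaving out 1 heart gave 12 to 95 in all, 4 to 55 higher and 7 to 40 lower; the lowest total was without P1 replicate 2 and the highest without P1 replicate 4, with 31 without P1 replicate 1, 17 without P1 replicate 3, 18, 16 and 26 without P7 replicates 1, 3 and 4. Testing only loci that reached 1 FPKM in all hearts left 13 higher; without trend, 16 were lower. Other choices of loci gave 24 calls of 834 loci over 50000 bases away (12 and 12), 8 of 454 with all 8 hearts at 1 (4 and 4) and 21 of 603 with FPKM of at least 2 (11 and 10). The number of loci was 1321 to 1444 with 1 heart left out. With the replicate block 68 were called (32 and 36); same-numbered hearts correlated at 0.06, 0.22, -0.28 and -0.12, so the numbers were not taken to pair the hearts, although the hearts numbered 2 stood apart together in the high pairs. The median log2 difference of the far loci was -0.28 with median-ratio scaling, where that of all tested loci was -0.21 in place of -0.08, and -0.16 to -0.10 with 1 heart left out. Of 694 values of the 49 called loci under 15 other settings, 395 stayed past the threshold, 299 did not and 0 changed sign. The calls of XLOC_026612, XLOC_038426, XLOC_066222 and XLOC_071140 held in all 14 that could be fitted, but XLOC_026612 and XLOC_066222 had passed the level through the P1 hearts alone, so that theirs is no sign of stability. XLOC_038426 and XLOC_071140 reached 1 FPKM in 5 hearts, among them all 4 of the stage where they were higher. Their choice therefore leaned on that stage too. The settings also share most of their hearts, so that the count of 14 is a description.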
